A study of Mus musculus with 12 samples.

Results

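The clustered protocadherins are cell surface proteins of the cadherin superfamily, encoded in 3 neighbouring gene clusters named alpha, beta and gamma. Members were chosen by gene name, as Pcdha, Pcdhac, Pcdhb, Pcdhga, Pcdhgb or Pcdhgc followed by a number, with at least 1 count in at least 3 libraries. The rule took 58 of the 35812 gene IDs in the count table, 14 alpha, 22 beta and 22 gamma. The gamma members comprised 12 of type A, 7 of type B and 3 of the C type (Pcdhgc3, Pcdhgc4 and Pcdhgc5), and 2 alpha members were of the C type (Pcdhac1 and Pcdhac2).

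Hippocampal RNA was sequenced from C57BL/6 males at 8 weeks of age, with 3 mice in each of 4 groups. F1_Dep were sons of males with stress-induced depression, F1_Ctl sons of normal males, F0_Dep stress-induced depressed males and F0_Ctl normal males. Neither the form of the stress nor the litter of each son is given in the sources used here. Expected counts were used for all 12 libraries, with totals between 18277208 and 23083678, and FPKM values for the 9 libraries of F1_Dep, F0_Dep and F0_Ctl. Labels of F1_Ctl alone carry sequencing lane names, so sequencing and group cannot be told apart there.

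In neurons, each clustered protocadherin is read from its own promoter and first exon. The binding factor CTCF and cohesin bring an enhancer to a few of these promoters, so that a neuron carries its own small set of isoforms, while C-type promoters are used more evenly across cells. Alpha and gamma first exons are spliced to constant exons shared by the whole cluster, whereas beta genes have no constant exons. The proteins bind identical partners on other membranes and are known for keeping sister dendrites apart, for dendrite growth and for neuron survival.

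All 58 members lie on the plus strand of chromosome 18 of GRCm38, by GENCODE gene positions. Alpha genes span 36930184 to 37187661, beta genes 37264938 to 37524479 and gamma genes 37661793 to 37841873. Of the exonic bases of an alpha member, a median of 53.6% (38.9 to 91.4%) also belonged to another gene on the same strand, and of a gamma member 44.7% (31.5 to 66.8%). Pcdha4 had the highest shared percentage. No exonic base was shared for 20 of 22 beta genes, and the exceptions, Pcdhb21 and Pcdhb22, overlap each other. Counts showed the same division: 71.2% of beta values were whole numbers, to within 1e-06, against none of the alpha and gamma values. Reads of the constant exons were thus divided between members by an estimate, and alpha and gamma values are uncertain to that extent. The name Pcdha11 was carried by a pair of IDs. Of these, ENSMUSG00000007440 (here Pcdha11, first ID) starts where RefSeq lists Pcdha10.

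Per length, as FPKM, 3 of the 5 C-type genes had the highest levels of all members. Pcdhgc5, which in mice is found at part of the inhibitory synapses of hippocampal neurons, had the highest mean over 9 libraries at 36.9 FPKM. It was followed by Pcdhgc3, known for dendrite branching in the mouse cortex, at 22.2 FPKM and Pcdhac2, known for the spacing of serotonin axons in mice, at 11.5 FPKM. Pcdhgc4, needed for the survival of cortical interneurons in mice, had 3.15 FPKM and Pcdhac1 1.57 FPKM. Leaving the C type aside, the highest gene of each subset was Pcdhga11 among gamma-A at 8.46, Pcdhgb6 among gamma-B at 6.08, Pcdhb9 among beta at 4.33 and Pcdha12 among alpha genes at 3.80 FPKM. The lowest gene of each cluster was Pcdhgb8 for gamma at 0.765, Pcdha8 for alpha at 0.235 and Pcdhb1 for beta at 0.0242 FPKM. Pcdhb1 was listed in 5 of 9 libraries and was the only member of the 58 that failed the filter on low counts, so 57 were tested. The median level was 1.60 FPKM for alpha, 1.61 FPKM for beta and 3.95 FPKM for gamma members. Place in the cluster and level were weakly related across genes, with Spearman's rho of 0.26 over 12 alpha genes without the C type, 0.30 over 22 beta genes and 0.063 over 19 gamma-A and gamma-B genes, which are not independent of each other.

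Levels as CPM, counts scaled to library totals corrected by TMM, varied within a group by a median SD of 0.28 on the log2 scale for alpha, 0.21 for beta and 0.26 for gamma members, against 0.20 over all genes tested. Pcdhb20 varied least, with an SD of 0.11, and Pcdhgc4 most, with an SD of 0.88, above 98.5% of all genes tested. Pcdhgc4 had expected counts of 2074, 1174 and 688 in F1_Dep, 2433, 864 and 3094 in F1_Ctl, 1110, 504 and 303 in F0_Dep, and 4504, 1575 and 3631 in F0_Ctl. All 3 F0_Dep libraries lay below all 3 F0_Ctl libraries, while F1_Dep and F1_Ctl overlapped. In FPKM the same gene had 2.99, 2.66 and 3.00 in F1_Dep, 3.13, 4.17 and 4.20 in F0_Dep, and 2.47, 3.03 and 2.69 in F0_Ctl, which puts F0_Dep above F0_Ctl. The ranking of levels also changed with the unit. By mean CPM over 12 libraries, not scaled to gene length, Pcdhgc4 had 89.2, above Pcdhac2 at 68.5. The highest beta gene by CPM was Pcdhb17 at 17.8, rather than Pcdhb9.

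**Figure D1:**
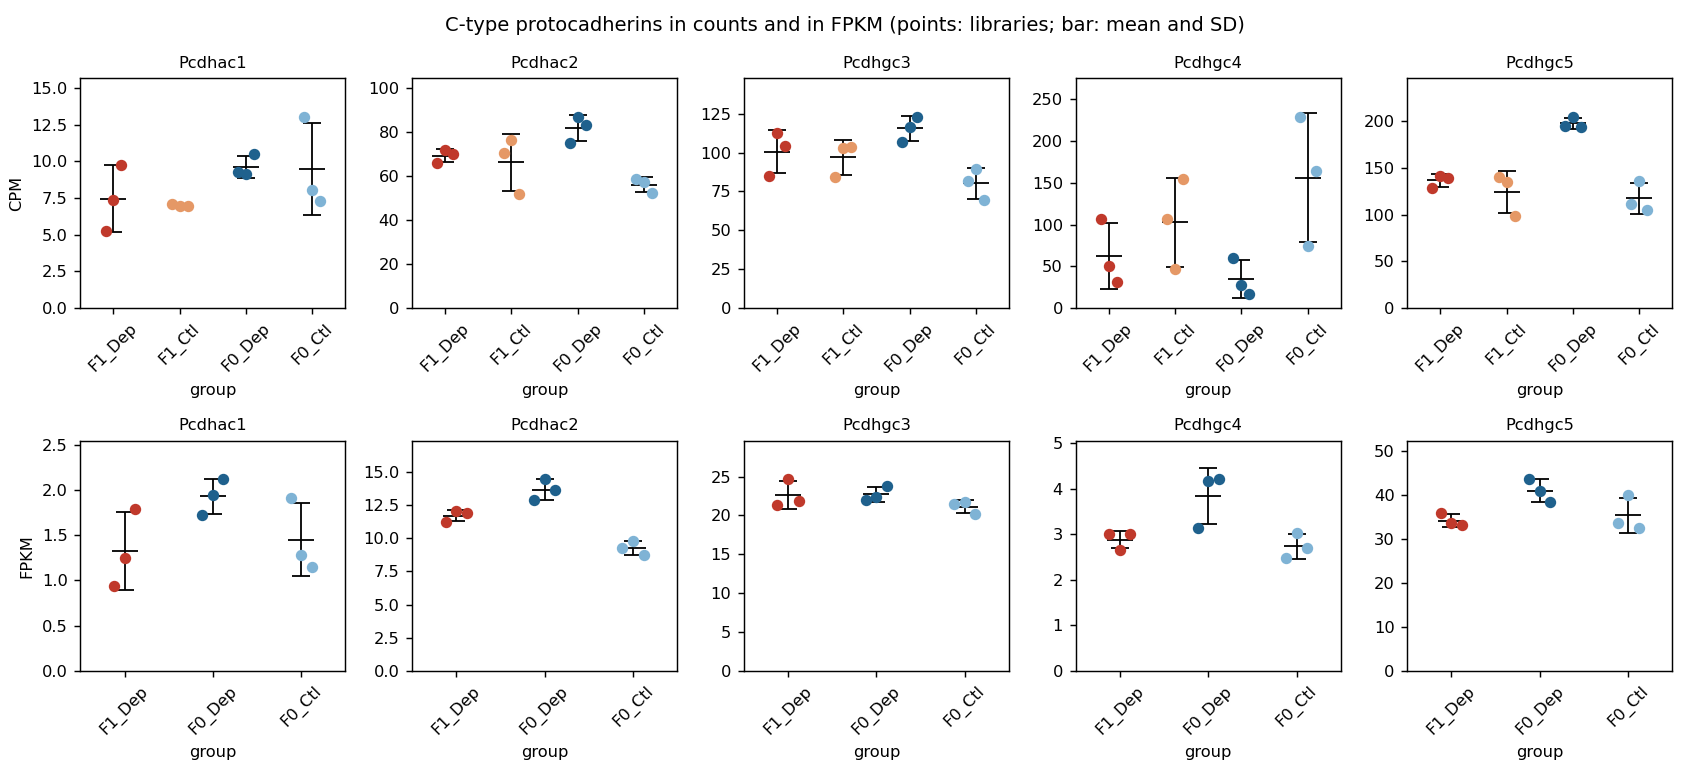
C-type protocadherins in CPM (upper row, 12 libraries) and FPKM (lower row, 9 libraries, F1_Ctl not shown). Points are libraries, bars the mean and SD of 3. Pcdhac2 shows one pattern in both units, while Pcdhgc4 spans 16.6 to 229 CPM but 2.47 to 4.20 FPKM.

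The units were compared library by library as the range, over 9 libraries, of log2 CPM minus log2 FPKM, which is 0 for a gene whose units differ by a constant factor. The median range was 0.33 for beta, 0.51 for alpha and 0.57 for gamma members. Pcdhgc4 had the widest range at 4.56, followed by Pcdha4 at 1.68, and for these genes alone of the members listed in all 9 libraries the units ran in opposite directions (Pearson's r of -0.81 and -0.41 on the log2 scale over 9 libraries). The wide range of Pcdha4 rested on the first F0_Ctl library, at 3.86, against 2.18 to 2.69 in the other libraries. Pcdhac2 had the narrowest range of the C-type genes at 0.11. Pcdhgc4 took 4.61 to 16.8% of the summed gamma CPM in F1_Dep, 7.44 to 25.3% in F1_Ctl, 2.28 to 8.13% in F0_Dep and 11.8 to 33.3% in F0_Ctl. Its share of the summed gamma FPKM lay between 1.91 and 2.96% in every library. Gm38182, a processed transcript annotated over the gamma constant exons (37823879 to 37840382), had 4.95, 8.96 and 6.96 FPKM in F1_Dep, 1.79, 3.51 and 2.36 FPKM in F0_Dep, and 11.4, 7.09 and 6.27 FPKM in F0_Ctl. Like Pcdhgc4 counts, its FPKM was lower in every F0_Dep library than in every F0_Ctl library. The expected counts held no value for its ID, and its part in the gamma values was not tested.

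Markers of other cells and of neighbouring tissue moved with the groups, and their part in the protocadherin results was not tested. Fewer cells of a type and less RNA per cell cannot be told apart in bulk tissue. All 7 neuron markers were present in every library, with a summed level of 5571 to 6642 CPM in F1_Dep, 5284 to 6603 in F1_Ctl, 5765 to 6442 in F0_Dep and 4878 to 5786 in F0_Ctl. The 5 markers of oligodendrocyte precursors summed to 327 to 345 CPM in F1_Dep, 253 to 408 in F1_Ctl, 183 to 200 in F0_Dep and 252 to 320 in F0_Ctl, so that F0_Dep lay below the other groups. The 7 oligodendrocyte markers summed to 5488 to 6559 CPM in F1_Dep, 4011 to 6755 in F1_Ctl, 2638 to 2937 in F0_Dep and 1995 to 5694 in F0_Ctl. The 8 dentate granule cell markers summed to 132 to 374 CPM in F1_Dep, below the 546 to 750 in F1_Ctl, the 522 to 741 in F0_Dep and the 453 to 609 in F0_Ctl. The 10 choroid plexus markers summed to 3619 to 6237 CPM in F1_Dep and 156 to 495 CPM in F0_Dep, but 331 to 12344 CPM in F1_Ctl and 176 to 6462 CPM in F0_Ctl, where the third library of each was the highest. Clic6 was the only choroid plexus marker at 0, in the first F0_Ctl library. The 8 striatum markers summed to 178 to 1154 CPM in F1_Dep, highest in the first library, 115 to 220 in F1_Ctl, 84.2 to 101 in F0_Dep and 103 to 193 in F0_Ctl. The 5 CA1 markers of the hippocampus summed to 394 to 786 CPM in F1_Dep, 324 to 473 in F1_Ctl, 319 to 553 in F0_Dep and 210 to 1173 in F0_Ctl. None of the 5 had a positive fold change in F0_Dep over F0_Ctl, with a median of -0.73, and all 5 had one in F1_Dep over F1_Ctl, with a median of 0.51. The 5 CA3 markers summed to 181 to 268 CPM in F1_Dep, 223 to 313 in F1_Ctl, 240 to 339 in F0_Dep and 88.9 to 364 in F0_Ctl. In F0_Dep over F0_Ctl, 4 of the 5 CA3 markers (median 0.60) and 6 of the 7 neuron markers (median 0.20) had a positive fold change. In F1_Dep over F1_Ctl, 2 of the 5 (median -0.17) and 2 of the 7 (median -0.11) had one. The 6 endothelial markers summed to 180 to 194 CPM in F1_Dep, 151 to 209 in F1_Ctl, 171 to 197 in F0_Dep and 206 to 240 in F0_Ctl. In F0_Dep these endothelial sums lay below those of F0_Ctl. Sums of the astrocyte, microglia and interneuron markers overlapped between F0_Dep and F0_Ctl. Interneuron markers summed to 710 to 777 CPM in F1_Dep, above the 660 to 688 CPM in F1_Ctl.

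The comparison of stressed with normal males asked which members differed after stress. Gamma genes stood higher in F0_Dep than in F0_Ctl in 20 of 22 cases in counts, with a median log2 fold change of 0.48, whereas the alpha median was 0.016 and the beta median 0.0063. In FPKM 15 of 21 gamma genes tested were positive, with a median of 0.12, and 15 of the 21 had the same sign in both units. Gamma genes share constant exons, so these cases are not independent. Log2 CPM minus log2 FPKM of Pcdhgc5 was 2.16 to 2.33 in F0_Dep and 1.69 to 1.77 in F0_Ctl. For Pcdhga5 it was 2.24 to 2.43 and 1.91 to 2.17. This offset was not particular to these genes. It was higher in every F0_Dep than in every F0_Ctl library for all gamma members but Pcdhga3, Pcdhga6, Pcdhgb8 and Pcdhgc4. For Pcdhga3, Pcdhga6 and Pcdhgb8 the groups overlapped. Pcdhgc4 ran the other way, with 1.98 to 4.27 in F0_Dep and 4.63 to 6.53 in F0_Ctl. The part of this offset between units in the count fold changes was not tested. Over all 16178 genes tested in counts the median was -0.035 and 45.4% were positive, and over all genes tested in FPKM it was -0.023 and 47.5% were positive. In edgeR's quasi-likelihood test with Benjamini-Hochberg adjustment over all genes, 2 members passed an adjusted p of 0.05, both of them gamma genes and both higher, where 0.346% of all genes tested were called higher. No member was called lower, against 0.148% of all genes. At an unadjusted p under 0.05 were 21 members, 18 higher and 3 lower, against 19.7% of all genes. DESeq2 called 8 members, 7 higher and 1 lower, where it called 6.66% of all genes. Without the third F0_Ctl, the third F1_Ctl and the first F1_Dep library together, which stood apart in choroid plexus or striatum markers and were picked after the data were seen, edgeR called 6, 5 higher and 1 lower, where it called 2.19% of all genes higher and 0.904% lower.

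Pcdhga5, an alternately chosen gamma-A gene, had 23.8, 23.02 and 19.96 CPM in F0_Dep, against 10.7, 13.9 and 10.98 CPM in F0_Ctl. All F0_Dep libraries lay above all F0_Ctl libraries. It rose by 0.91 ± 0.14 (log2 ± SE, edgeR adjusted p = 0.031). In FPKM it had 5.06, 4.61 and 3.71 in F0_Dep, against 2.85, 3.09 and 2.93 in F0_Ctl, and rose there too, by 0.46 ± 0.12 on the log2(FPKM + 1) scale (limma adjusted p = 0.0245). Without any F0_Dep library, or without the first F0_Ctl library, the adjusted p in counts lay between 0.0669 and 0.185.

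Pcdhgc5 had 195, 205 and 194 CPM in F0_Dep, against 112, 136 and 105 CPM in F0_Ctl. The groups did not overlap, and the F0_Dep libraries stood close together. Its log2 fold change was 0.75 ± 0.13 (edgeR adjusted p = 0.0445), a call that held in a single omission of the 6 tried, that of the second F0_Ctl library. In FPKM it had 43.6, 41.0 and 38.6 in F0_Dep, against 33.8, 40.1 and 32.5 in F0_Ctl, where the groups overlapped and the change of 0.21 ± 0.095 did not pass (limma adjusted p = 0.132).

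Pcdhac2 gave the closest match between units. It had 75.4, 87.1 and 83.5 CPM in F0_Dep, against 58.8, 57.5 and 52.4 CPM in F0_Ctl, with a log2 fold change of 0.54 ± 0.13 that missed the threshold (edgeR adjusted p = 0.0642). In FPKM it had 12.8, 14.4 and 13.7 in F0_Dep, against 9.29, 9.78 and 8.74 in F0_Ctl, and rose by 0.51 ± 0.086 (limma adjusted p = 0.00908). The groups did not overlap in either unit. Pcdhac1 had a log2 fold change of 0.028 ± 0.24 in counts and 0.27 ± 0.17 in FPKM, and neither passed.

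Pcdhgc3 had 107, 117 and 123 CPM in F0_Dep, against 81.9, 89.2 and 69.7 CPM in F0_Ctl, and 22.03, 22.3 and 23.8 FPKM in F0_Dep, against 21.5, 21.8 and 20.2 FPKM in F0_Ctl. Both units kept the groups apart, but the log2 fold change was 0.53 ± 0.13 in counts (edgeR adjusted p = 0.0733) and 0.10 ± 0.084 in FPKM (limma adjusted p = 0.411). For Pcdhgc4 the units had opposite signs, -2.16 ± 0.61 in counts (edgeR adjusted p = 0.099) and 0.37 ± 0.13 in FPKM (limma adjusted p = 0.06). No direction is given for Pcdhgc4 here.

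All 12 gamma-A genes had a positive fold change in counts, 9 of them without overlap between groups, and 11 of 12 had one in FPKM. Their medians were 0.56 in counts and 0.23 in FPKM. Over all members, 18 of 57 tested (31.6%) stood higher in F0_Dep without overlap in CPM, against 13.7% of all genes, and 3 stood lower, against 13.8%. In FPKM 13 of 52 (25.0%) stood higher, against 19.7% of all genes, and 2 stood lower, against 19.1%. Of the 18 and 13, 10 were the same genes. Limma on FPKM called Pcdhac2, Pcdhga5, Pcdhb16, Pcdhga3 and Pcdhga6 higher and no member lower, where 10.4% of all genes were called higher and 10.8% lower. The 5 of 52 members called there are close to that background. Pcdhga3, with 0.73 ± 0.19 in counts and 0.40 ± 0.11 in FPKM, and Pcdhga6, with 0.81 ± 0.21 and 0.44 ± 0.13, had edgeR adjusted p of 0.0825 and 0.0844.

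Gamma-B genes lie among the gamma-A genes and share their constant exons. Of 7, 6 had a positive fold change in counts, with a median of 0.16, but 1 of 6 tested had one in FPKM, with a median of -0.18. Pcdhgb1, taken as an example after its values were seen, had 0.13 ± 0.19 in counts with overlapping groups and -0.25 ± 0.11 in FPKM with F0_Dep below F0_Ctl, and passed in neither unit (adjusted p of 0.743 in edgeR and 0.131 in limma). Pcdhgb4 was the only gamma member besides Pcdhgc4 with a negative fold change in counts, -0.059 ± 0.21. A test of gamma-A against gamma-B genes was not made.

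**Figure D2:**
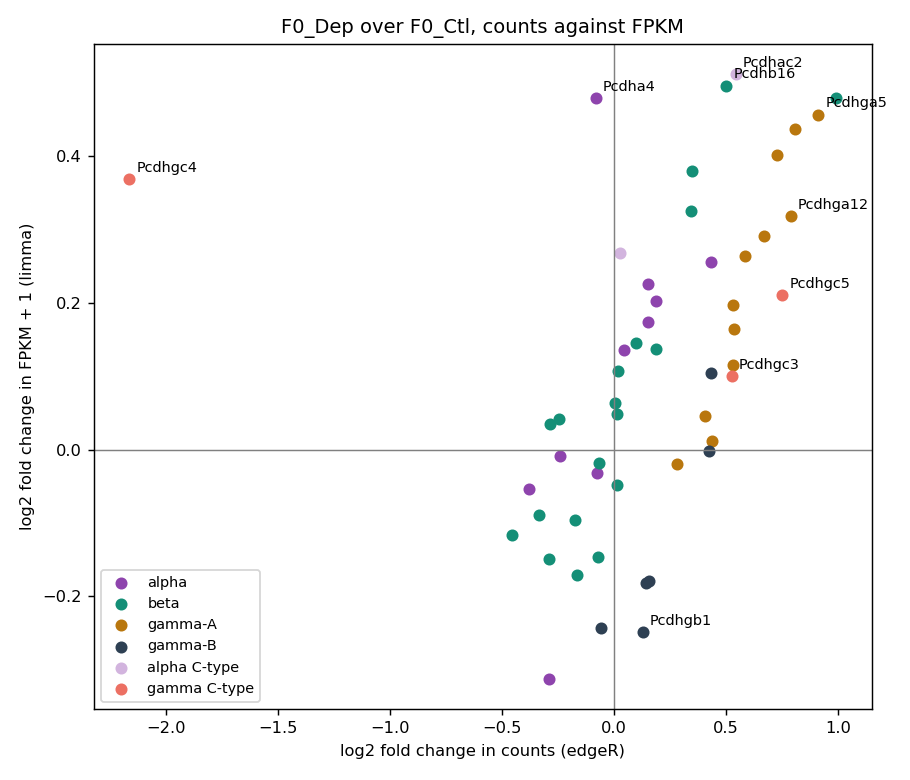
Log2 fold change of F0_Dep over F0_Ctl in counts (horizontal axis, edgeR) and in FPKM (vertical axis, limma on log2(FPKM + 1)) for the 52 members tested in both units, coloured by subset. Gamma-A genes lie right of 0 and, with 1 exception, above it, gamma-B genes lie near or below 0 on the vertical axis, and Pcdhgc4 stands alone at -2.16 and 0.37.

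Summed levels describe the same division. The gamma-A genes together had 288, 301 and 288 CPM in F0_Dep, against 183, 239 and 159 CPM in F0_Ctl, a ratio of means of 1.51. In FPKM they summed to 59.6, 57.7 and 54.3 in F0_Dep, against 47.4, 52.6 and 42.4 in F0_Ctl, a ratio of 1.21. Each F0_Dep sum lay above each F0_Ctl sum in both units. The gamma-B sum averaged 99.1 ± 7.01 CPM in F0_Dep and 82.9 ± 13.5 CPM in F0_Ctl, but 20.2 ± 0.925 FPKM in F0_Dep and 21.9 ± 1.65 FPKM in F0_Ctl (SD, n = 3 each). The whole gamma cluster averaged 740 ± 11.9 CPM in F0_Dep and 631 ± 61.0 CPM in F0_Ctl, or 145 ± 2.89 FPKM in F0_Dep and 129 ± 11.2 FPKM in F0_Ctl, so that the ratio was 1.17 in counts and 1.13 in FPKM. Without Pcdhgc4 the gamma sum averaged 705 ± 21.2 CPM in F0_Dep and 475 ± 80.2 CPM in F0_Ctl, a ratio of 1.48, or 141 ± 3.41 FPKM in F0_Dep and 126 ± 10.98 FPKM in F0_Ctl, a ratio of 1.12. The third F0_Ctl library, the one with the most choroid plexus markers in its group, had the lowest gamma-A sum of that group. Choroid plexus levels, as the median centred log2 CPM of the markers, were -2.49, -2.75 and 2.43 in the F0_Ctl libraries. The gamma-A sums of these libraries were 183, 239 and 159 CPM. Pcdhgc4 took 33.3, 11.8 and 29.0% of the summed gamma CPM in the same libraries. The part of either in the gamma-A sums was not tested.

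**Figure D3:**
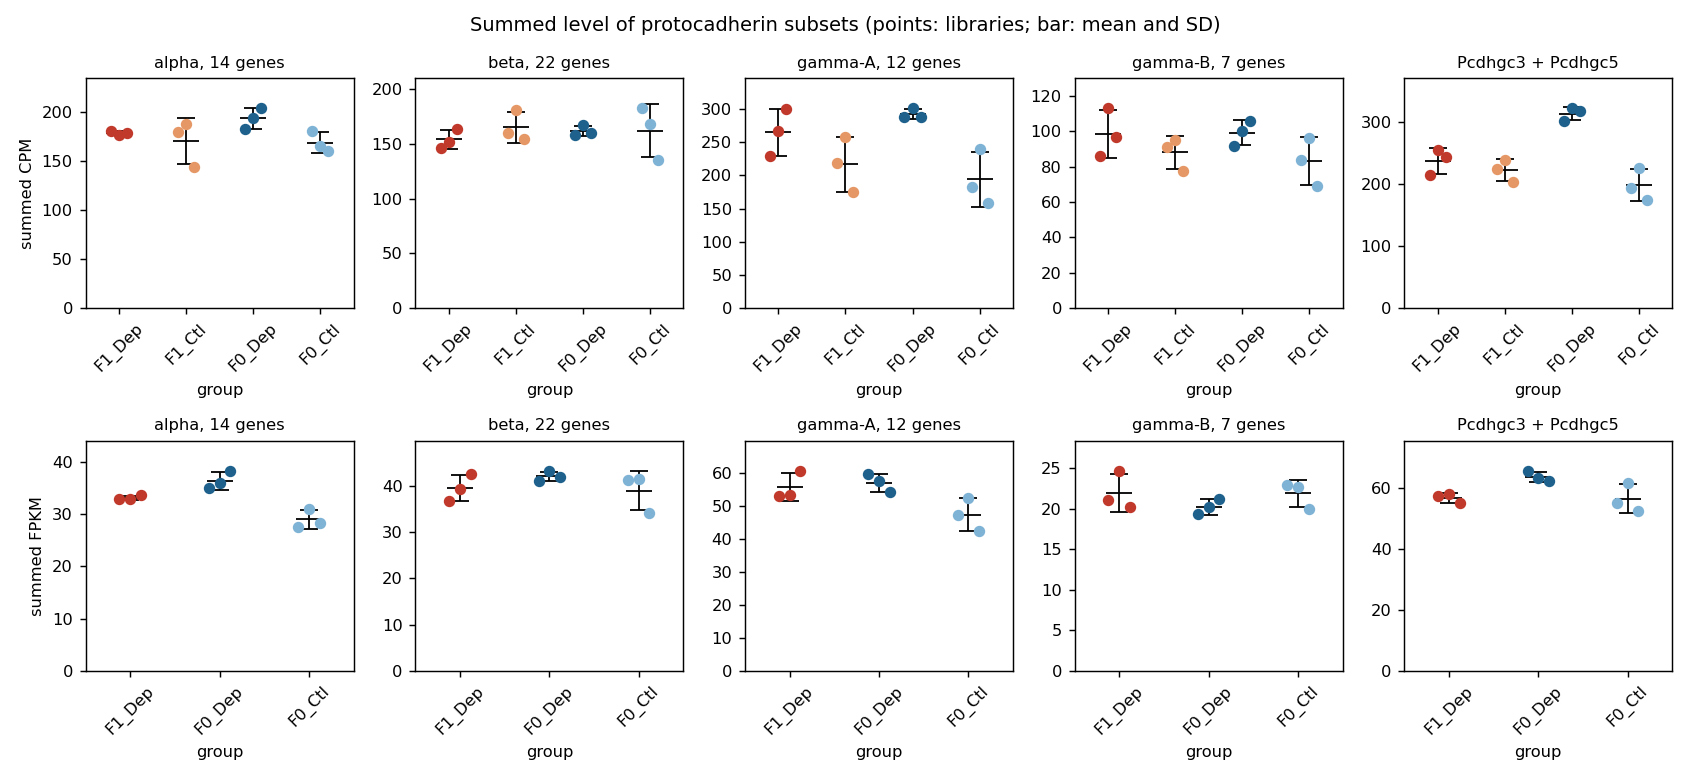
Summed CPM (upper row, 12 libraries) and FPKM (lower row, 9 libraries, F1_Ctl not shown) of the alpha, beta, gamma-A and gamma-B genes and of Pcdhgc3 with Pcdhgc5. Points are libraries, bars the mean and SD of 3. Gamma-A sums of F0_Dep, 288 to 301 CPM, lie above those of F0_Ctl, 159 to 239 CPM, while beta sums overlap.

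In the alpha cluster, 8 of 14 genes had a positive fold change in F0_Dep. Apart from Pcdhac2, none separated the groups in counts. Those with the smallest p were Pcdha7 at 0.43 ± 0.28 among the positive, and Pcdha8 at -1.07 ± 0.57 and Pcdha3 at -0.38 ± 0.21 among the negative, with edgeR adjusted p of 0.33 or more. Pcdha8 rested on low counts, with 1.05, 0.87 and 0.76 CPM in F0_Dep, against 2.28, 3.00 and 0.36 CPM in F0_Ctl. The alpha sum without the C type averaged 102 ± 6.82 CPM in F0_Dep and 103 ± 4.98 CPM in F0_Ctl (SD, n = 3 each).

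Beta genes, whose reads are hardly shared, were evenly divided, with 11 of 21 positive. Pcdhb16 had 10.7, 12.1 and 10.01 CPM in F0_Dep, against 8.55, 8.37 and 6.20 CPM in F0_Ctl, without overlap. Its log2 fold change was 0.50 ± 0.18 in counts (edgeR adjusted p = 0.165) and it rose by 0.50 ± 0.13 in FPKM (limma adjusted p = 0.0275). Pcdhb2 had 0.99 ± 0.43 in counts at 3.04 to 4.32 CPM in F0_Dep and 0.908 to 2.76 CPM in F0_Ctl (edgeR adjusted p = 0.229). Pcdhb18 and Pcdhb20 stood lower without overlap in counts, with -0.46 ± 0.15 and -0.29 ± 0.13 and edgeR adjusted p of 0.134 and 0.243.

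**Figure D4:**
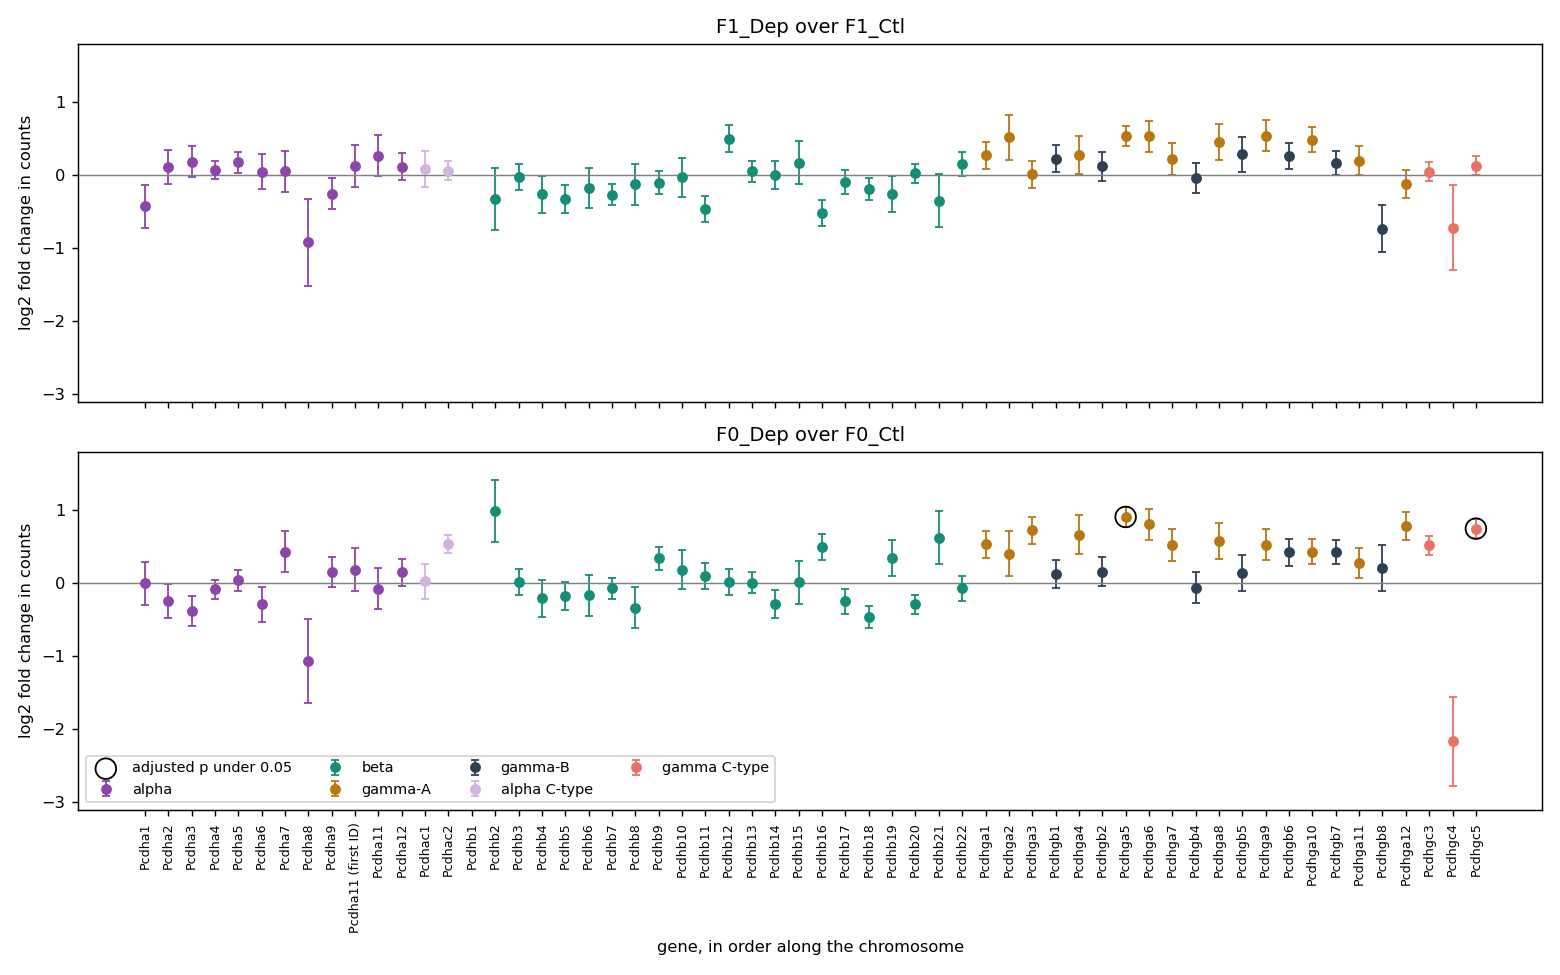
Log2 fold change in counts of each member, in gene order, for F1_Dep over F1_Ctl (upper panel) and F0_Dep over F0_Ctl (lower panel). Points are edgeR estimates, bars their SE, rings mark adjusted p under 0.05 (Pcdhga5 and Pcdhgc5 in the lower panel), and Pcdhb1 was not tested.

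The comparison of sons of depressed males with sons of normal males asked whether the father's stress was followed by a difference. No member was called by edgeR, where 0.167% of all genes were called, and 8 of 57 had an unadjusted p under 0.05 (against 14.8% of all genes). DESeq2 called 1, Pcdhga5, where it called 3.36% of all genes. Gamma-A and gamma-B genes had a positive fold change in 16 of 19 cases, with a median of 0.26, and beta genes in 6 of 21, with a median of -0.12. The median over all genes was -0.019. Single omissions gave 0.16 to 0.42 for the gamma-A and gamma-B median, lowest without the third F1_Dep and highest without the second F1_Ctl library. The beta median lay between -0.20 and 0.0092 in single omissions, and its sign turned without the second F1_Ctl library.

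Pcdhga5 had 16.1, 20.1 and 17.5 CPM in F1_Dep, against 13.9, 11.6 and 11.6 CPM in F1_Ctl. The groups did not overlap, and the log2 fold change was 0.54 ± 0.14 (edgeR adjusted p = 0.12). Pcdhga10 also kept the groups apart, with 0.49 ± 0.18. Among members 3 stood higher without overlap, against 8.73% of all genes, and 5 stood lower, against 10.3%. Pcdhgb8 had the smallest p among negative gamma members at -0.73 ± 0.33, with overlapping groups.

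Pcdhb16 and Pcdhb12 had the smallest p among beta genes. Pcdhb16 had 5.86, 6.64 and 6.78 CPM in F1_Dep, against 8.21, 11.5 and 7.94 CPM in F1_Ctl, a log2 fold change of -0.52 ± 0.18 (edgeR adjusted p = 0.222). Pcdhb12 had 9.26, 9.64 and 9.66 CPM in F1_Dep, against 8.26, 6.38 and 5.49 CPM in F1_Ctl, with 0.50 ± 0.18. Neither gene's groups overlapped. Pcdhb11 stood lower without overlap, at -0.46 ± 0.18, and Pcdhb22 had 0.16 ± 0.17.

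In the alpha cluster the smallest p in each direction belonged to Pcdha5 at 0.18 ± 0.14 and Pcdha11 at 0.27 ± 0.28, and to Pcdha8 at -0.92 ± 0.60, the 1 alpha member that stood lower without overlap, and Pcdha1 at -0.42 ± 0.30. The C-type genes had log2 fold changes of 0.086 ± 0.24 for Pcdhac1, 0.065 ± 0.13 for Pcdhac2, 0.051 ± 0.13 for Pcdhgc3 and 0.13 ± 0.13 for Pcdhgc5, all with overlapping groups and edgeR adjusted p of 0.695 or more. Pcdhgc4 had -0.72 ± 0.58 in counts (adjusted p = 0.609), and F1_Ctl was not compared in FPKM. The third F1_Ctl library, highest in choroid plexus markers, had the lowest gamma-A sum of the 6 libraries at 175 CPM. The other F1_Ctl libraries had 218 and 258 CPM, and F1_Dep had 228 to 299 CPM. Choroid plexus levels (median centred log2 CPM) were -1.57, -0.25 and 3.48 in F1_Ctl and 1.17, 2.46 and 2.33 in F1_Dep. Pcdhgc4 took 16.7, 7.44 and 25.3% of the summed gamma CPM in the F1_Ctl libraries. The part of either in the gamma-A sums was not tested.

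**Figure D5:**
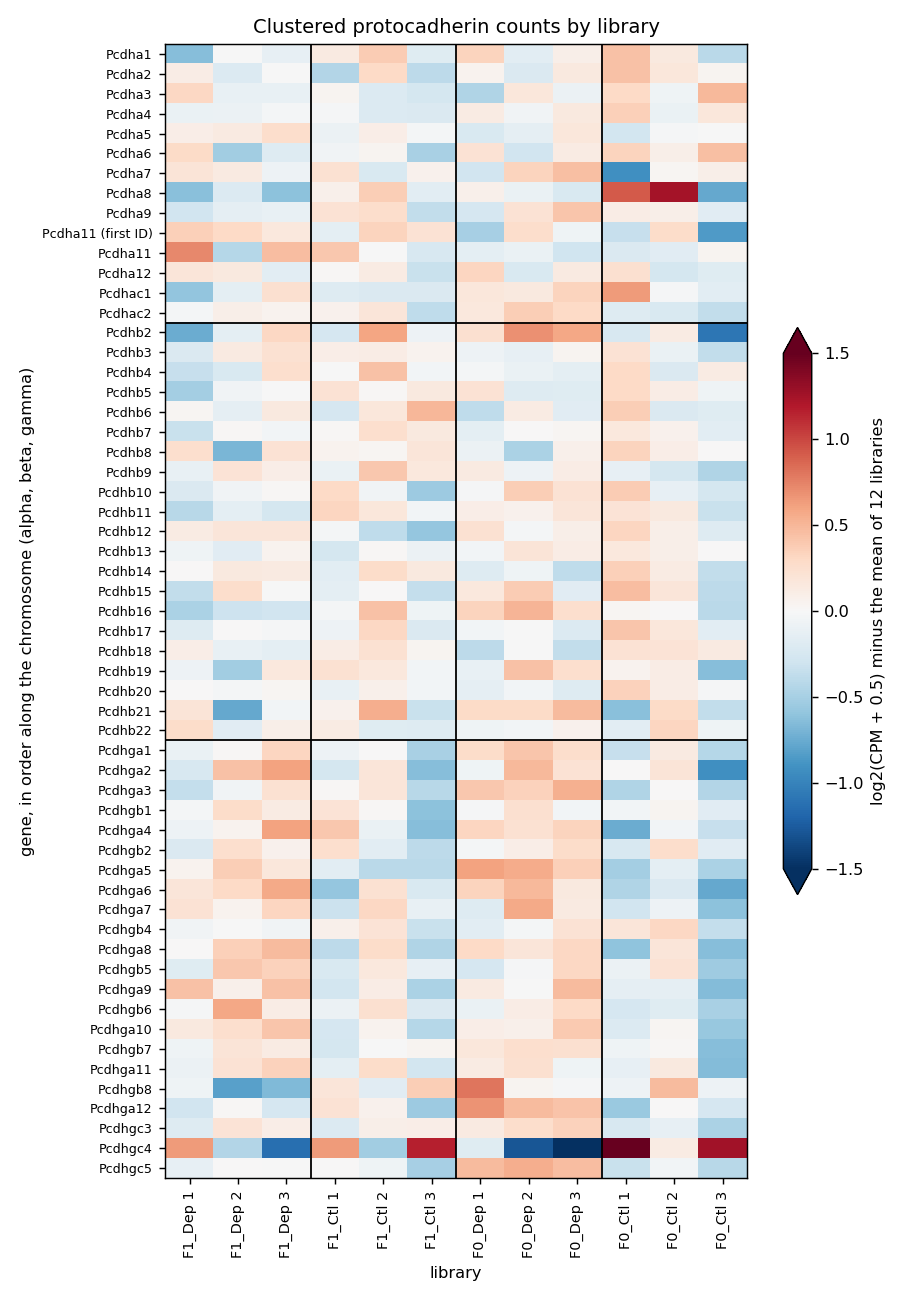
Log2(CPM + 0.5) of the 57 members tested, each row minus its mean over 12 libraries, with genes in order along the chromosome and lines between clusters and groups; colours saturate at 1.5. Most Pcdhga rows are high in the 3 F0_Dep libraries and low in the third libraries of F1_Ctl and F0_Ctl, and the Pcdhgc4 row runs the other way.

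Whether the stress difference of the sons departed from that of the males was tested as an interaction, the F1 change minus the F0 change. No member passed in edgeR, where 0.068% of all genes did, and 8 had an unadjusted p under 0.05, all negative, against 13.4% of all genes. Pcdhb16 had the smallest p, with an interaction of -1.02 ± 0.26 (edgeR adjusted p = 0.133), and was the 1 member that DESeq2 called, where it called 3.03% of all genes. Pcdhga12 followed at -0.90 ± 0.27 and Pcdhgc5 at -0.62 ± 0.19, both with an adjusted p = 0.184. The other C-type genes had -0.48 ± 0.18 for Pcdhac2, -0.47 ± 0.18 for Pcdhgc3, 1.44 ± 0.83 for Pcdhgc4 and 0.059 ± 0.34 for Pcdhac1. Among beta genes Pcdhb11 had -0.55 ± 0.25, Pcdhb12 0.49 ± 0.26 and Pcdhb20 0.31 ± 0.18. Pcdha3 at 0.56 ± 0.30, Pcdha2 at 0.36 ± 0.33, Pcdha9 at -0.40 ± 0.29 and Pcdhgb5 at 0.15 ± 0.34 completed the smallest p by cluster and direction.

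Between the groups whose label names depression, F1_Dep and F0_Dep, Pcdhb16 was the 1 member called lower in F1_Dep, where 1.56% of all genes were, and no member was called higher, against 1.31%. It had 5.86, 6.64 and 6.78 CPM in F1_Dep, against 10.7, 12.1 and 10.01 CPM in F0_Dep. The highest F1_Dep library lay well below the lowest F0_Dep library. It fell by 0.76 on the log2 scale, with an SE of 0.18 (edgeR adjusted p = 0.0471). In FPKM it had 1.13, 1.34 and 1.41 in F1_Dep, against 2.39, 2.67 and 2.30 in F0_Dep, a change of -0.59 ± 0.13 (limma adjusted p = 0.0244), and it was the 1 member called there, where 4.76% of all genes were called lower and 7.22% higher. Each omission of 1 library ended the call in counts, with edgeR adjusted p of 0.103 to 0.163, and without the same 3 libraries as above 4 members were called, all lower, where 3.21% of all genes were called lower and 5.04% higher.

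Pcdhgc5 had 129, 142 and 140 CPM in F1_Dep, against 195, 205 and 194 CPM in F0_Dep, without overlap, a log2 fold change of -0.53 ± 0.13 (edgeR adjusted p = 0.0527), and -0.26 ± 0.095 in FPKM. Pcdhga12 had 22.2, 27.5 and 22.7 CPM in F1_Dep, against 43.4, 37.7 and 36.7 CPM in F0_Dep, with -0.70 ± 0.19 (adjusted p = 0.0651). These groups did not overlap either. The remaining C-type genes had -0.24 ± 0.13 for Pcdhac2, -0.37 ± 0.24 for Pcdhac1, -0.20 ± 0.13 for Pcdhgc3 and 0.84 ± 0.59 for Pcdhgc4, the last with -0.31 ± 0.13 in FPKM.

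At an unadjusted p under 0.05 in counts were 7 members, all lower in F1_Dep, against 22.3% of all genes. Without regard to p, 8 members stood lower without overlap, against 20.3% of all genes, and 2 stood higher, against 22.5%. Cluster medians were -0.13 for alpha, 0.014 for beta and -0.027 for gamma, beside 0.0062 over all genes. Pcdhb11 had -0.41 ± 0.18, Pcdhb14 0.32 ± 0.19 and Pcdhb18 0.21 ± 0.15. Pcdha11 at 0.55 ± 0.28, Pcdha5 at 0.23 ± 0.14, Pcdha9 at -0.35 ± 0.21 and Pcdhgb5 at 0.19 ± 0.24 had overlapping groups.

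F1_Dep set against F0_Ctl uses the same F0_Ctl libraries as the stress comparison above, so the results are not independent. No gene at all passed in edgeR (0%), 2078 genes had an unadjusted p under 0.05, and DESeq2 called 410 genes (2.53%), among them Pcdhga5 and Pcdhga6. Of the members, 14 had an unadjusted p under 0.05, 11 positive and 3 negative, against 12.8% of all genes. Pcdhga6 had 19.7, 21.4 and 25.8 CPM in F1_Dep, against 12.5, 14.8 and 9.93 CPM in F0_Ctl, with 0.84 ± 0.21 (edgeR adjusted p = 0.147). Pcdhga5 had 0.60 ± 0.14 (adjusted p = 0.143), and neither gene's groups overlapped. Without overlap 9 members stood higher, against 9.06% of all genes, and 1 lower, against 10.5%. In limma on FPKM no member passed, where 0.268% of all genes did.

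The gamma median of F1_Dep over F0_Ctl was 0.33, beside -0.014 over all genes, the alpha median -0.21 and the beta median -0.15. In FPKM the gamma median was 0.12 with 15 of 21 positive, beside 0.021 over all genes. Single omissions gave a gamma median of 0.18 to 0.52 in counts, lowest without the third and highest without the second F0_Ctl library. Over the 12 alpha genes tested in both units the median was -0.039 in counts and 0.21 in FPKM, and 11 of the 12 had the same sign. Pcdha4, the gene with the most shared bases, was -0.23 ± 0.13 in counts and 0.23 ± 0.17 in FPKM. Its units differed most in the first F0_Ctl library. Pcdhac2 stood higher without overlap at 0.30 ± 0.13, and the other C-type genes overlapped, with Pcdhac1 at -0.34 ± 0.24, Pcdhgc3 at 0.32 ± 0.13, Pcdhgc5 at 0.22 ± 0.13 and Pcdhgc4 at -1.32 ± 0.59, and none passed. In counts, Pcdhb9 stood higher without overlap at 0.36 ± 0.15 and Pcdha5 at 0.28 ± 0.14, and Pcdhb18 stood lower without overlap at -0.25 ± 0.15. The Pcdhb18 groups overlapped in FPKM. Pcdhb11 (-0.32 ± 0.18), Pcdhb3 (0.14 ± 0.18), Pcdha8 (-1.72 ± 0.59) and Pcdhgb8 (-0.71 ± 0.33) had overlapping groups in counts.

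Between the control groups, F1_Ctl and F0_Ctl, no gene passed in edgeR (0%) or DESeq2, and 954 genes had an unadjusted p under 0.05 in edgeR (5.9%), against 3 members. Without the first F1_Ctl library edgeR called 400 genes, or 2.43% of those tested, and without the third F0_Ctl library 9, but no member in either. The 3 members with an unadjusted p under 0.05 in the main fit, none of them called, were Pcdhb9 at 0.46 ± 0.16, Pcdhb12 at -0.42 ± 0.18 and Pcdha4 at -0.31 ± 0.13. Without overlap 1 member tested, Pcdhb9, stood higher, against 2.71% of all genes, and 2 lower, Pcdha6 and Pcdhac1, against 3.31%. The C-type genes had 0.24 ± 0.13 for Pcdhac2, -0.43 ± 0.24 for Pcdhac1, 0.27 ± 0.13 for Pcdhgc3, -0.60 ± 0.58 for Pcdhgc4 and 0.086 ± 0.13 for Pcdhgc5. The cluster medians were 0.017 for alpha, 0.034 for beta and 0.094 for gamma, beside 0.020 over all genes. The next smallest p belonged to Pcdha6 at -0.48 ± 0.24, Pcdhb16 at 0.26 ± 0.18, Pcdhb20 at -0.19 ± 0.13, Pcdhgb6 at 0.30 ± 0.18, Pcdhgb4 at -0.082 ± 0.21 and Pcdha11 (first ID) at 0.41 ± 0.29.

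Genes that act on or with the clusters were counted from 3 lists. Among 25 regulators of promoter choice, which include CTCF, cohesin subunits and loaders and DNA methylation genes, none passed in any comparison, and 20 of 25 were positive in F0_Dep over F0_Ctl, with a median of 0.13. Ctcf, the architectural factor, averaged 89.0 ± 3.21 CPM in F0_Dep and 86.9 ± 9.70 CPM in F0_Ctl, a log2 fold change of 0.033 ± 0.087. Rad21, a cohesin subunit, had -0.011 ± 0.089, Smchd1, a chromatin protein that represses the clusters, 0.15 ± 0.12, and Dnmt3b, a DNA methyltransferase of their promoters, 0.065 ± 0.35. In F1_Dep over F1_Ctl Ctcf had -0.062 ± 0.087, Rad21 0.0059 ± 0.088, Smchd1 -0.096 ± 0.12 and Dnmt3b -0.21 ± 0.34.

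Of 26 partners and signalling genes, 1 passed in 1 comparison. Ptk2b, the kinase PYK2, which alpha and gamma proteins bind and inhibit, averaged 834 ± 124 CPM in F1_Dep and 1249 ± 20.1 CPM in F0_Dep (SD, n = 3 each) and fell by 0.58 on the log2 scale, with an SE of 0.13 (edgeR adjusted p = 0.0438), where 1.56% of all genes were called lower. Of 11 tested members of the non-clustered protocadherins, which lie elsewhere and lack shared constant exons, 2 passed, both lower in F1_Dep than in F0_Dep, against the same 1.56% of all genes. Pcdh8, an activity-regulated protocadherin of synapses, averaged 42.3 ± 13.2 CPM in F1_Dep and 96.9 ± 11.01 CPM in F0_Dep, with -1.19 ± 0.21 (adjusted p = 0.0247). Pcdh20 averaged 107 ± 24.8 CPM in F1_Dep and 203 ± 32.6 CPM in F0_Dep, with -0.92 ± 0.17 (adjusted p = 0.0281). Dentate granule markers were also lower in F1_Dep than in F0_Dep. All 8 striatum, 10 choroid plexus and 7 oligodendrocyte markers were positive in that comparison, with medians of 2.36, 3.94 and 0.96. The part of these markers in the Ptk2b, Pcdh8 and Pcdh20 values was not tested. In F0_Dep over F0_Ctl, 9 of the 11 non-clustered protocadherins were positive, with a median of 0.24, and none passed.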

How the data were processed

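The authors deposited expected counts (estimated counts, not always whole) for 35812 Ensembl IDs in 12 libraries, and FPKM values per gene for 9 of them; F1_Ctl FPKM was not used here. Libraries were made with a stranded mRNA kit, per the labels' protocols. Per the submitters' processing notes, HISAT2, Cufflinks 2.2.1 and the mm10 build were used, with no role stated for each. The sources used here do not give the counting tool, its annotation or its strand setting. The deposited FPKM values are scaled to gene length and depth.

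Counts were rounded, filtered (filterByExpr), scaled by TMM and tested over 16178 IDs with edgeR 4.0.16 (R 4.3.3), all 4 groups sharing 1 estimate of spread. FPKM was tested with limma 3.58.1 on log2(FPKM + 1) over 13820 genes that reached 1 FPKM in 3 or more libraries. Fold changes on that scale understate those of low genes. Replicates are separate mice, 3 per group, and p-values rest on the spread between mice within groups, pooled over the groups of a fit. As the litters of the sons are not given, that spread need not be the spread between fathers. The members, lists and tests were chosen with earlier results of these data known. Named genes are the C-type genes, every member called, the 2 of smallest p per cluster and direction, the highest and lowest member per cluster, list genes that passed, and Ctcf, Rad21, Smchd1 and Dnmt3b. All p-values were adjusted over all genes tested. GENCODE M21 gave gene positions (GRCm38). Alternatives comprised DESeq2 1.42.0, limma-voom, other scalings and filters, the replicate block, single omissions and FPKM settings. Samples were compared pairwise within each group, and no such pair was close enough to be 1 library. Pairs across groups were not compared in this way. The edgeR test was tested on simulated data.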

Additional observations from a re-analysis of the deposited data

Results flagged for a closer look

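Pcdhb16 had fold changes of opposite sign in the sons and in the males, with no overlap between groups in either generation. Its log2 fold change was -0.52 in F1_Dep over F1_Ctl and 0.50 in F0_Dep over F0_Ctl, and the difference between them was -1.02 (unadjusted p = 0.0019 in edgeR, adjusted p = 0.133 over all genes), so the difference did not pass. Pcdhb16 shares no exonic base with another gene, and 98.0% of its 50-base stretches are found in the transcripts of no other annotated gene. The sons of depressed males also had lower dentate granule markers than every other group. Other markers differed too, with all 8 striatum markers positive in F1_Dep over F1_Ctl (median 1.81). The part of these differences in the Pcdhb16 values was not tested.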

How the results depend on the processing

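Counts of members called moved with the tool and the libraries, as did the share of all genes called, given in brackets. For F0_Dep against F0_Ctl, 2 members were called in the main test (0.494% of all genes tested). DESeq2 gave 8 (6.66%), voom 5 (2.83%), library totals alone 1 (0.260%) and a fit of only these groups 0 (0.135%). FPKM gave 5 with pseudocount 1 (21.2%) or 0.1 (21.1%), and 1 without the filter (6.12%). Single omissions gave 0 to 4 (0.0301 to 2.25%), and the 3 libraries left out together 6 (3.10%). For F1_Dep against F1_Ctl, 0 (0.167%) became 1 with DESeq2 (3.36%), 3 with voom (9.38% of all genes) and 0 to 1 in single omissions (0 to 4.11%). For F1_Dep against F0_Ctl, 0 (0%) became 2 with DESeq2 (2.53%) and 1 without the 3 libraries (3.80% of all genes). For F1_Dep against F0_Dep, where 2.87% of all genes were called, 1 became 3 with DESeq2 (9.29% of all genes) and 9 with voom (29.8%). It became 2 with upper-quartile scaling (3.16%) or a minimum of 1 CPM (3.63%). A fit of only these groups gave 5 (24.0% of the genes tested there), and leaving out the 3 libraries gave 4 (8.25%). The count was 0 without a filter (1.84%), in FPKM without a filter (2.12%) and in every single omission (0.0482 to 1.04%). The interaction, 0 (0.068%), became 1 with DESeq2 (3.03%), voom (2.19%) or without the 3 libraries (2.94%), and 0 to 2 in single omissions (0 to 1.09%). With the replicate number as a block, 0 members were called for F0_Dep against F0_Ctl (0.0742%) and 0 for F1_Dep against F0_Dep (1.09%). The labels do not say whether the numbers pair the mice. Of 15 same-numbered pairs, 2 correlated above 0.1 after group means were removed (r of -0.19 to 0.52). Paired mice need not correlate in this way, so these values cannot decide it. The cause of these moves was not tested. The gamma median of F0_Dep over F0_Ctl lay between 0.11 and 0.61 over 20 alternatives, at 0.11 to 0.16 in the FPKM settings and 0.36 to 0.61 in single omissions.

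Signs changed for members that were not called. In FPKM, Pcdhgc4 had 0.37 and 0.47 (pseudocounts 1 and 0.1) for F0_Dep over F0_Ctl, 0.059 and 0.078 for F1_Dep over F0_Ctl and -0.31 and -0.39 for F1_Dep over F0_Dep, while for F1_Dep over F0_Ctl Pcdha4 had 0.23 and 0.33 and Pcdhgc5 -0.045 and -0.046. Pcdhac1 had -0.0047 with upper-quartile scaling and -0.12 without the 3 libraries for F0_Dep over F0_Ctl. Without those libraries Pcdha11 had -0.14, Pcdhac2 -0.054 and Pcdhb22 -0.021 for F1_Dep over F1_Ctl. Pcdhgb4 had 0.0092 with voom for F1_Ctl over F0_Ctl. Single omissions gave Pcdhac1 -0.12 to 0.34 and Pcdhgb4 -0.24 to 0.086 for F0_Dep over F0_Ctl. They gave Pcdhac1 -0.16 to 0.28, Pcdhac2 -0.061 to 0.21 and Pcdhgc3 -0.043 to 0.16 for F1_Dep over F1_Ctl, and Pcdhb3 -0.0041 to 0.32 for F1_Dep over F0_Ctl. They gave Pcdhgb4 -0.26 to 0.063 and Pcdhgc5 -0.0078 to 0.22 for F1_Ctl over F0_Ctl, and in the interaction Pcdhac1 -0.26 to 0.26 and Pcdhgb5 -0.055 to 0.32. With 3 mice a group, a difference in members of low count such as Pcdha8 or of wide spread such as Pcdhgc4 was detectable only if large.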
